A study of Homo sapiens with 5 samples.

Results

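The proteasome subunit genes were followed in a map of FOXO3A occupancy in 2 human leukemia cell lines, U-937 and THP-1. Members were all protein-coding genes of the hg38 RefSeq table whose symbols begin with PSMA, PSMB, PSMC, PSMD, PSME, PSMF or PSMG, which gave 50 of 19866 protein-coding genes. By role they were 19 genes of the core particle, 17 of the regulatory particle, 5 activators and inhibitors and 7 assembly factors. The symbol rule also took 2 genes for proteins that bind a subunit or an activator, PSMC3IP and PSME3IP1.

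The proteasome degrades proteins that carry a ubiquitin chain. Its barrel-shaped core particle is built from rings of alpha (PSMA) and beta (PSMB) subunits, and some of the beta subunits hold the catalytic sites. A regulatory particle caps the barrel, with a ring of ATPases (PSMC) that unfolds the substrate and non-ATPase subunits (PSMD) that bind the chain and remove it. Activators (PSME) can take the place of the regulatory particle, and dedicated chaperones (PSMG and some PSMD genes) assemble the parts. FOXO3A belongs to the forkhead family of transcription factors, and the kinase AKT holds it in the cytoplasm. FOXO factors have been linked to proteasome genes in other settings, as in muscle wasting.

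The assay was CUT&Tag. An antibody against the factor brings Tn5 transposase to chromatin, and the enzyme cuts and tags the DNA beside it. U-937 had 2 libraries and THP-1 had 3, with no treatment named in the labels, and each was made with the same FOXO3A antibody. Both lines are established, grow in suspension with monocytic features, and are classed in the labels as acute myeloid leukemia cells. U-937 replicate 1 held 2272 peaks and THP-1 replicate 1 held 1282 (1037 of them on chromosomes), whereas U-937 replicate 2 and THP-1 replicates 2 and 3 held 0 peaks each. Every value below therefore rests on 1 library per line, without a replicate check or a known read depth, and no test between the lines was made. No IgG or input control was among these libraries, and whether peaks were called against one is not known.

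In U-937, 6 proteasome genes carried a peak, meaning that a peak summit lay within 1000 bp of the start or end of the gene. They were PSMD1, PSMC4 and PSMC5 of the regulatory particle, PSMB9 of the core, and the assembly factors PSMG1 and PSMD9. In THP-1 no proteasome gene did. The U-937 share was 12.0% of proteasome genes (6 of 50, exact 95% interval 4.53 to 24.3) and 7.01% of the other protein-coding genes (1389 of 19816, 6.66 to 7.37), with 7.02% over all protein-coding genes. The interval of the proteasome share at this window includes the share of the other genes. With the window at 3000 bp, 9 of 50 proteasome genes had a peak (18.0%, 8.58 to 31.4), an interval whose lower end lies above the 8.19% of other genes (7.81 to 8.58) and the 8.22% of all protein-coding genes but meets the upper end of the interval of the other genes. The 9 genes rest on 8 peaks, as PSME1 and PSME2 share one. In THP-1 the shares were 0 of 50 proteasome genes, where 3 counts in 50 give an upper limit of 6.0% and the exact interval reaches 7.11%, and 44 of 19816 other genes (0.222%), with 0.221% over all protein-coding genes. Within 500 bp the U-937 shares were 12.0% of proteasome genes, the same 6, and 6.22% of other genes, with 6.23% over all. In THP-1 no proteasome gene had a summit within 500, 3000 or 10000 bp, while 0.131%, 0.498% and 1.1% of all protein-coding genes did. These intervals and limits cover counting error only.

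The 6 genes lay on 6 chromosomes, and no peak was counted for more than 1 proteasome gene. The start region of each is shown because it holds the peak or lies next to it. The sequences are RefSeq promoter windows (GRCh38.p14), 5′ to 3′ on the strand of the gene, from 250 bases before to 50 bases after the listed start. The capitals mark every match, on either strand, to the motifs named further on, and where matches overlap or adjoin they form 1 longer run. Windows were listed for 44 of the 50 genes. None was used for PSMA7, PSMB1, PSMB6, PSMB7, PSMD4 and PSMG3.
PSMD1 (chr2:231056617-231056916, plus strand): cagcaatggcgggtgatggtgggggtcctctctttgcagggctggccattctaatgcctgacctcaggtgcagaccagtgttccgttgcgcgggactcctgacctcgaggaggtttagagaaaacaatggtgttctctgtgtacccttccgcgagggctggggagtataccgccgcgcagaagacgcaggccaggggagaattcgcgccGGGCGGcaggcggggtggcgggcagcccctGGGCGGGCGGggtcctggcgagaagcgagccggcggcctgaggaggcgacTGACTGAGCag
PSMC4 (chr19:39970915-39971214, plus strand): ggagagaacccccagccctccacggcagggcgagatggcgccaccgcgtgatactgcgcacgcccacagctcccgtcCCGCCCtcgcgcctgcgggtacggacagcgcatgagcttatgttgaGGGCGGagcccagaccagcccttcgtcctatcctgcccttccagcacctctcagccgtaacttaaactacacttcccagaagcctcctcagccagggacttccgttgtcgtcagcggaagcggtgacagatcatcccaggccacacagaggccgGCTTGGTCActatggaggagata
PSMC5 (chr17:63827181-63827480, plus strand): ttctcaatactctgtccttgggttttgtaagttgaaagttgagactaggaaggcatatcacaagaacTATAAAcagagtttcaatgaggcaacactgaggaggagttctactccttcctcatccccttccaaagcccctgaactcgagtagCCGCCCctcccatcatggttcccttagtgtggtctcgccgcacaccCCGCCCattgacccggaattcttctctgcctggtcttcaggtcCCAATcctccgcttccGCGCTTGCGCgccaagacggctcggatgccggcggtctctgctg
PSMB9 (chr6:32853942-32854241, plus strand): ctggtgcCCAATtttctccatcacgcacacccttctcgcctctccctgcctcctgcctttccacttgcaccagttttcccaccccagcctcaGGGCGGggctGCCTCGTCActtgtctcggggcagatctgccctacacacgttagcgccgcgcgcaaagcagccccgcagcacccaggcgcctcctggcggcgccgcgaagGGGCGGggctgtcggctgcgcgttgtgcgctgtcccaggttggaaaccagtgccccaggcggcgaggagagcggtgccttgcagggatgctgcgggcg
PSMG1 (chr21:39183402-39183701, minus strand): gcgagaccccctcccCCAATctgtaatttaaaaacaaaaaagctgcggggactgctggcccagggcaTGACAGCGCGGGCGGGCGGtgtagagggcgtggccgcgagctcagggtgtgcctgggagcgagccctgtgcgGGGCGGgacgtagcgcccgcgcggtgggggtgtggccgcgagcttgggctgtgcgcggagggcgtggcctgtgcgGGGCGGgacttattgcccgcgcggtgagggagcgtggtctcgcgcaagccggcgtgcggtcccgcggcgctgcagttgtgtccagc
PSMD9 (chr12:121888540-121888839, plus strand): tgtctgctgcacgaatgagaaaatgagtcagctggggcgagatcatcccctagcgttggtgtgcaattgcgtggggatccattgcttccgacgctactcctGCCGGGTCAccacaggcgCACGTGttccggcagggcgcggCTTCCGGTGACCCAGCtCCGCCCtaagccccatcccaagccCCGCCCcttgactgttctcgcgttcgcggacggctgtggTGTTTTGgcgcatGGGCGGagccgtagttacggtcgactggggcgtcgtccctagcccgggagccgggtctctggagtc

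The regulatory particle had 3 of 17 genes with a U-937 peak (17.6%, exact 95% interval 3.80 to 43.4), beside 7.02% of all protein-coding genes, which the interval includes. They were 2 of the 6 ATPases and 1 of the 11 non-ATPase subunits. PSMD1 encodes a large scaffold subunit of the base, and its peak was the strongest at any proteasome gene. It lay at chr2:231056635-231056869 with a fold enrichment of 11.99 and a -log10 q of 15.6, both as the authors' caller gave them. By fold it ranked 38 among all 2272 peaks of the list. The summit was 167 bp upstream of the PSMD1 start, at position 84 of the printed window. A lncRNA gene of the opposite strand, LOC112268432, spans this start and has its own start 1046 bp from the summit.

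PSMC4 and PSMC5 both encode ATPases of the ring that unfolds substrates. The PSMC4 peak, at chr19:39970858-39971119, had a fold of 8.54 and a -log10 q of 8.63, and ranked 335 in the list. Its summit lay 152 bp upstream of PSMC4 and 42 bp from the start of LOC124904720, a lncRNA gene that runs the other way. The PSMC5 peak, at chr17:63827170-63827691, was the weakest of the 6 and ranked 1768, with a fold of 4.80 and a -log10 q of 2.71. It was also the widest, at 522 bp. Its summit lay 160 bp upstream of PSMC5, and 392 bp from the start of FTSJ3, an rRNA-processing gene whose first part overlaps PSMC5 on the opposite strand.

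The other 14 genes of the regulatory particle had no peak in the window in either line. The ATPase genes PSMC1, PSMC2, PSMC3 and PSMC6 lay between 169 kb (PSMC1) and 1353 kb (PSMC2) from their nearest U-937 summit. The nearest non-ATPase gene was PSMD4, whose product is a ubiquitin receptor, at 14.6 kb, and the farthest was PSMD12, a subunit of the lid, at 2183 kb. PSMD14, the gene of the deubiquitinase that removes the ubiquitin chain, lay 231 kb from a U-937 summit. It had the nearest THP-1 peak of all proteasome genes, at 29.5 kb.

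The core particle had 1 of 19 genes with a U-937 peak (5.26%, exact 95% interval 0.133 to 26.0), beside 7.02% of all protein-coding genes, and none of the 8 alpha ring genes had one. The exception was PSMB9, which encodes a catalytic subunit of the immunoproteasome, the form that interferon induces and that produces peptides for MHC class I. Its peak at chr6:32853839-32854070 had a fold of 6.68, a -log10 q of 5.42 and rank 903. The summit lay between 2 diverging genes, 267 bp upstream of PSMB9 and 221 bp upstream of TAP1, which encodes a chain of the transporter that carries those peptides into the endoplasmic reticulum. The printed PSMB9 window begins 17 bases past this summit. As TAP1 was nearer, PSMB9 had no peak when each peak was given only to its nearest protein-coding gene.

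The other genes of the catalytic subunits had no peak in the window. PSMB8, the immunoproteasome gene on the far side of TAP1, lay 9.25 kb from the same U-937 summit, and PSMB10, the remaining immunoproteasome gene, lay 372 kb from its nearest one. For the constitutive catalytic subunits the distances to the nearest U-937 summit were 96.3 kb for PSMB5, 169 kb for PSMB6 and 342 kb for PSMB7. In THP-1 the nearest summit to a catalytic subunit gene was 54.4 kb from PSMB6. The beta ring genes without a catalytic role lay 41.9 kb (PSMB2, which was the closest), 52.3 kb (PSMB4), 486 kb (PSMB1) and 697 kb (PSMB3) from a U-937 summit. PSMB11, the catalytic gene of the thymus form, lay 113 kb from one. Of the alpha ring genes PSMA7 lay closest, at 1582 bp, then PSMA3 at 26.4 kb. PSMA8, a form of the testis, and PSMA6 were the farthest of all 50 genes, at 2681 and 2794 kb.

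Assembly factors had 2 of 7 genes with a U-937 peak (28.6%, exact 95% interval 3.67 to 71.0), beside 7.02% of all protein-coding genes, which the interval includes. PSMG1 encodes a chaperone that helps to build the alpha ring, and its peak was the second strongest at a proteasome gene. At chr21:39183494-39183831 it had a fold of 10.5, a -log10 q of 12.4 and rank 97. The summit lay 98 bp upstream of the outermost PSMG1 start, and 161 bp upstream of the start listed for the printed window. The end of BRWD1, the upstream gene on the same strand, was 564 bp from it. PSMD9 encodes a chaperone of the regulatory particle base. Its peak at chr12:121888725-121889001 had a fold of 6.82, a -log10 q of 6.21 and rank 850. The summit was the closest of all, 58 bp inside PSMD9 and 9 bases past the printed window, and 237 bp from the start of the diverging gene HPD, an enzyme of tyrosine breakdown.

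PSMG2, whose product pairs with that of PSMG1, did not count as having a peak, because its nearest gene end was 22.9 kb from the summit. A U-937 peak did lie inside the gene, at chr18:12702768-12702975, with a fold of 6.21 and a -log10 q of 4.75. Its summit was 193 bp upstream of a second start that RefSeq lists within PSMG2. It was also 72 bp from the start of CEP76, a centriole gene that runs the other way inside the PSMG2 span. The window at this inner start is given because the summit falls in it, at position 58.
PSMG2 inner start (chr18:12702792-12703091, plus strand): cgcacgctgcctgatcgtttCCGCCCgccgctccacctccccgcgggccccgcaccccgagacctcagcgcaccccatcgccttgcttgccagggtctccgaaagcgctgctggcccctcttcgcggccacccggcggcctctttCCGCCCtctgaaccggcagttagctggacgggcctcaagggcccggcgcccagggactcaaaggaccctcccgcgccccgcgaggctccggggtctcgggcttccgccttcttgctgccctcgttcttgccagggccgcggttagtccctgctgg
The other assembly factor genes, PSMG3, PSMG4, PSMD5 and PSMD10, lay 274 to 750 kb from a U-937 summit. Counting every start of the promoter table in place of span ends, a choice made after the data were seen, gave 7 of 44 proteasome genes with a peak (15.9%), against 7.73% of other genes and 7.75% of all protein-coding genes. The exact interval of this proteasome share, 6.64 to 30.1, includes both of the other shares.

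None of the 5 activator and inhibitor genes had a peak within 1000 bp, where 3 counts in 5 give an upper limit of 60.0% and the exact interval reaches 52.2%. Over all protein-coding genes the shares were 7.02% in U-937 and 0.221% in THP-1, so 5 genes are too few to tell this group from the rest. PSME1 and PSME2, the paired genes for the interferon-induced activator, flank a U-937 peak of fold 5.69 and -log10 q 4.07. Its summit was 2688 bp from PSME1 and 1715 bp from PSME2, at the far end of each gene from its start. The same summit lay 59 bp from the start of EMC9, the gene between them, and 1839 bp from MIR7703, a miRNA gene inside the PSME2 span. PSMF1, the inhibitor gene, was 79.2 kb, PSME3 155 kb and PSME4 604 kb from the nearest U-937 summit. The genes for the binding proteins, PSMC3IP and PSME3IP1, were 184 and 358 kb from one. The last gene just outside the window was PSMA7, an alpha ring gene, with a weak peak inside it, 1582 bp from its nearer end (fold 4.65, -log10 q 2.44). The start of the neighbouring gene SS18L1 lay 1957 bp from that summit. PSME1, PSME2 and PSMA7 were the 3 genes added by the window of 3000 bp.

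**Figure D1:**
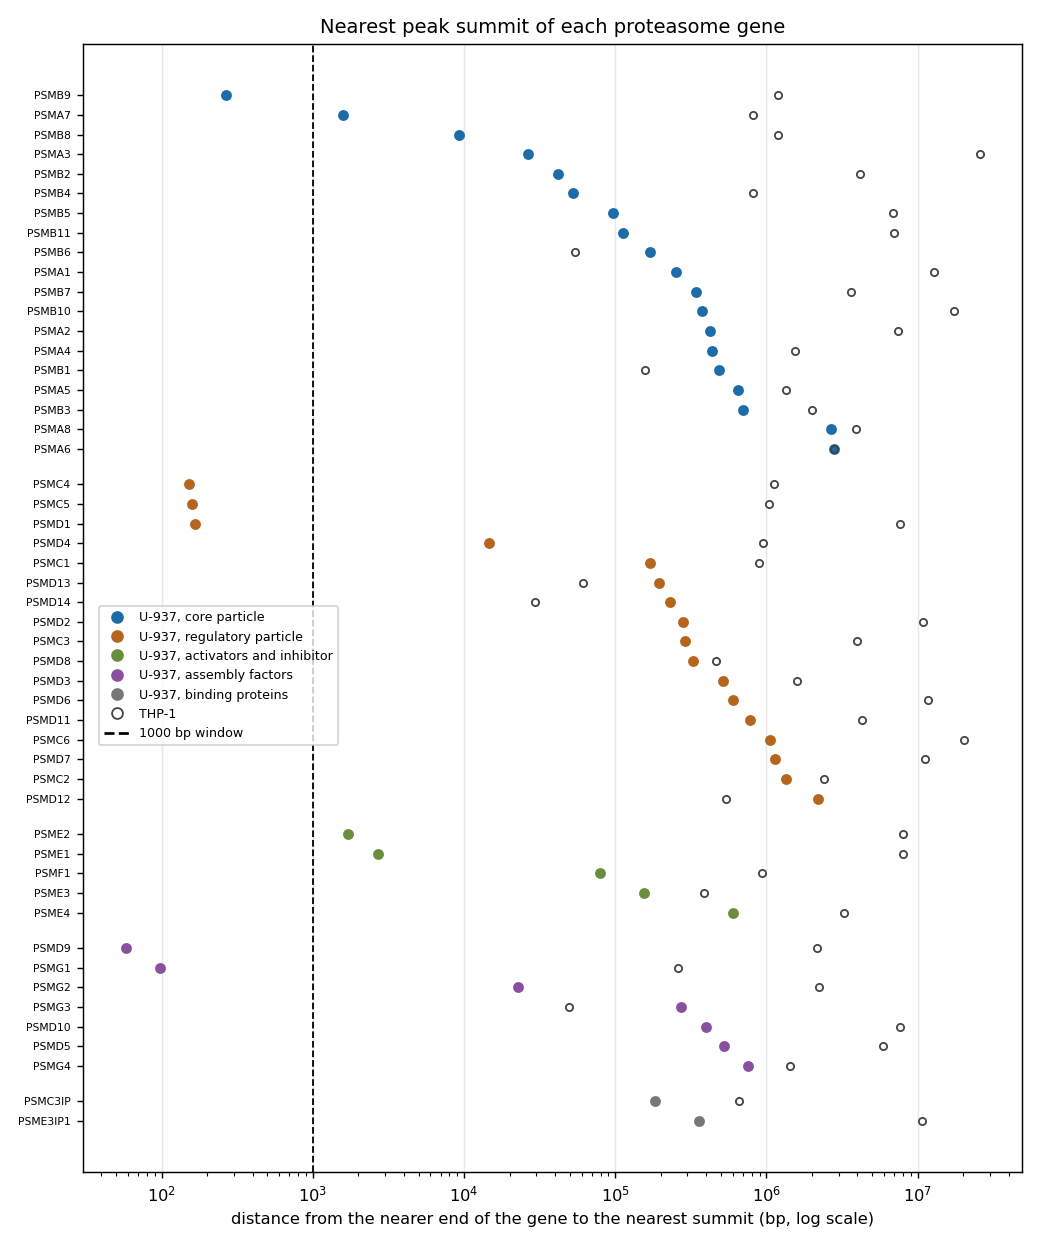
Distance in bp (log axis) from the nearer end of each proteasome gene to the nearest peak summit, with filled points for U-937 coloured by role and open points for THP-1. 6 U-937 points and 0 THP-1 points lie left of the dashed line at 1000 bp.

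Distances beyond the window were compared over all 50 genes. The median distance to the nearest U-937 summit was 263 kb for the proteasome genes and 226 kb for the other protein-coding genes. Within 10000 bp of a U-937 summit lay 10 proteasome genes (20.0%) and 11.3% of the other genes, with 11.3% over all protein-coding genes. Within 50000 bp lay 14 proteasome genes (28.0%) and 23.3% of the other genes, with 23.3% over all. No intervals were computed for the shares at 10000 and 50000 bp. In THP-1 the nearest summits to the 6 genes with a U-937 peak were 261 to 7698 kb away. Within 50000 bp of a THP-1 summit lay 2 proteasome genes (4.0%), PSMD14 and PSMG3, and 3.73% of other genes, with 3.74% over all.

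All 6 peaks sat at the start of the proteasome gene and none at its end. By starts alone, 6 of 44 proteasome genes of known strand had a peak (13.6%), with 7.25% over all protein-coding genes of known strand. The exact interval of this proteasome share, 5.17 to 27.4, includes the share over all. 5 of the 6 summits lay upstream of the start, and all 6 were within 300 bp of it, with a median distance of 156 bp. Among other genes with a U-937 peak and a known strand, 95.6% had it at the start (1143 of 1196). Of those 1143, 70.5% had the summit upstream and 76.8% had it within 300 bp, with a median distance of 187 bp.

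**Figure D2:**
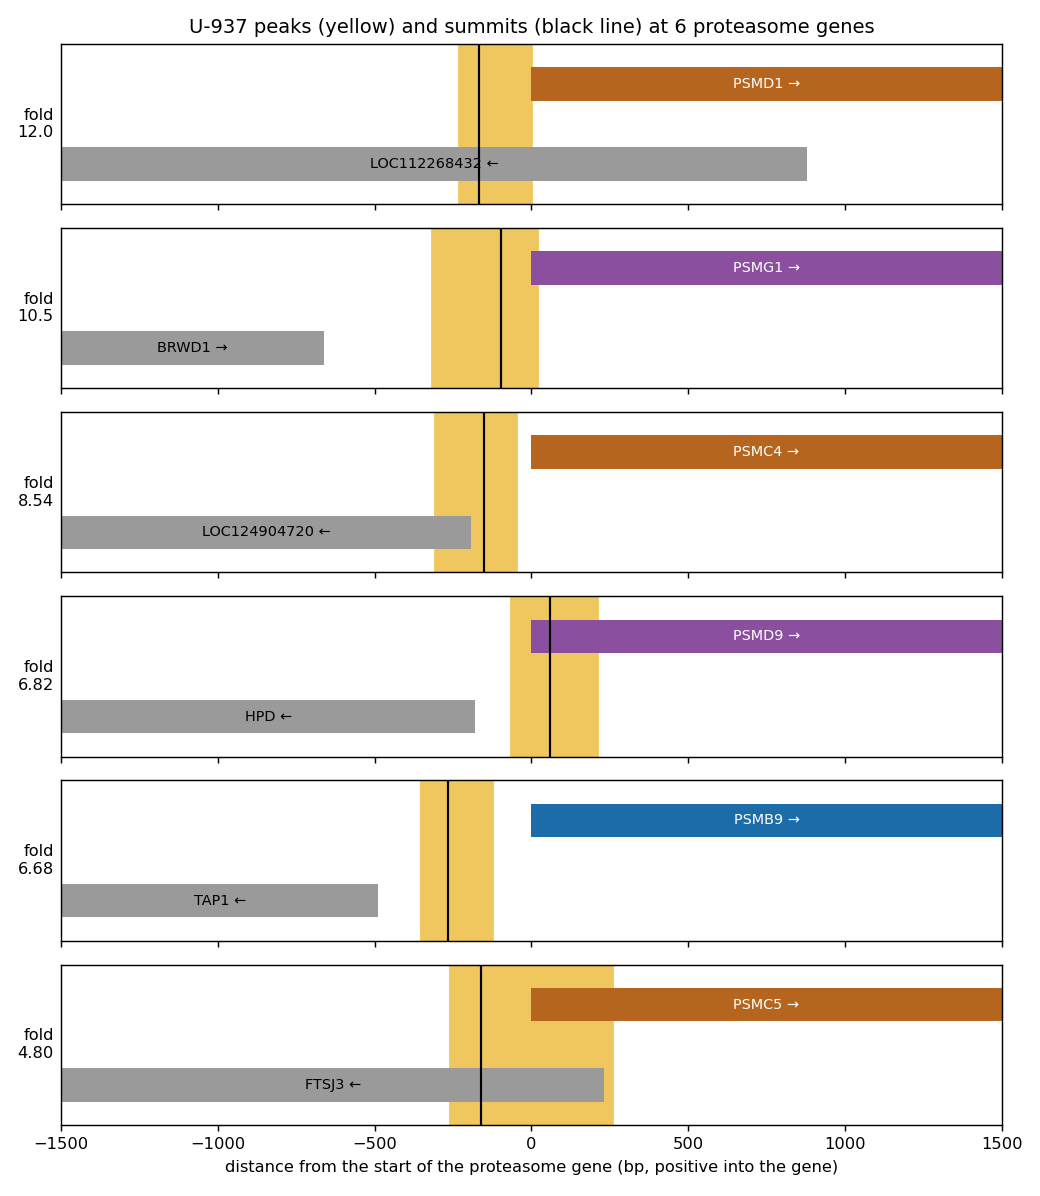
The 6 U-937 peaks at proteasome genes, each drawn by distance in bp from the gene start, with the peak in yellow, its summit as a black line, the proteasome gene in colour (brown for the regulatory particle, blue for the core, purple for assembly factors) and its neighbour in grey. The arrows give the direction of transcription, and 5 of 6 summits lie left of the start.

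Most of the 6 peaks were shared with a neighbour. The windows of 4 peaks held another protein-coding gene, TAP1, FTSJ3, HPD or BRWD1. Of all 1110 peaks at protein-coding genes, 26.2% (291) had more than 1 protein-coding gene in the window. That share counts each peak once, whereas the 6 peaks were reached through genes, so the values are not like for like. PSMD1 and PSMC4 were the genes without such a neighbour, so they alone had a peak (4.0% of proteasome genes, against 4.09% of other genes) when peaks in the window of more than 1 protein-coding gene were left out, a choice made after the data were seen. Counted by gene, that left 2 of the 6 proteasome genes with a peak and 810 of the 1389 other genes. A peak between neighbours cannot be given to either gene from these data.

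Several of these neighbours start close by and run the other way. Of the 44 proteasome genes of known strand, 7 had a protein-coding gene of the opposite strand starting within 1000 bp of their own start (15.9%), against 13.6% of other genes. A U-937 peak lay at 3 of these 7 (PSMB9, PSMC5 and PSMD9) and at 3 of the other 37 proteasome genes. Among other protein-coding genes the shares were 16.9% with such a neighbour and 6.10% without. The diverging pairs PSMA2 with MRPL32, PSMD13 with SIRT3, PSME2 with RNF31 and PSME4 with ACYP2 had no peak in the window.

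The 6 peaks differed in strength. Their median fold enrichment was 7.68 (range 4.80 to 11.99), beside 6.59 for all 1110 U-937 peaks at protein-coding genes (range 2.89 to 15.3). Their ranks by fold among these 1110 were 27 for PSMD1, 68 for PSMG1, 233 for PSMC4, 505 for PSMD9, 527 for PSMB9 and 953 for PSMC5. At a -log10 q of at least 5, 5 of the 6 remained, all but PSMC5, as did 55.1% of the 1110. That left 10.0% of proteasome genes (5 of 50, exact interval 3.33 to 21.8) and 3.92% of other genes with a peak. The interval of the proteasome share at this threshold includes the share of the other genes. The median width of 270 bp, beside 252 bp, was near that of the other peaks.

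**Figure D3:**
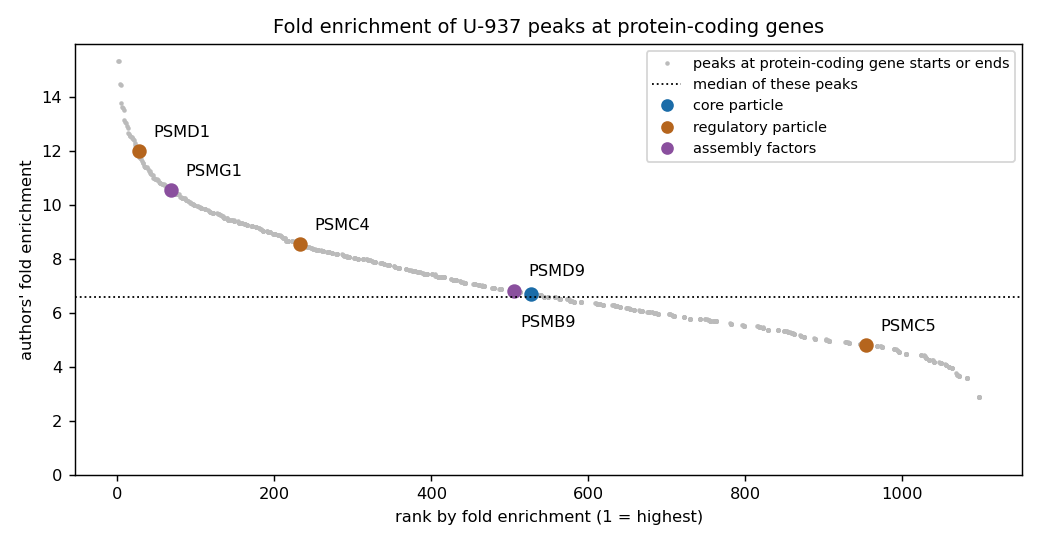
The authors' fold enrichment (linear axis from 0) of the 1110 U-937 peaks at protein-coding genes by rank, in grey, with the 6 peaks at proteasome genes in the colour of their role. 5 of the 6 lie above the dotted median of 6.59 and PSMC5 lies below it.

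The start regions were searched on both strands for 10 short motifs fixed in a list. The forkhead core TGTTTAC occurred in none of the 6 windows with a peak and in 2 of the 38 proteasome windows without one, those of PSMB2 and PSMD5, against 2.67% of the 15841 protein-coding windows without an undetermined base. Over other genes it was in 1.67% of windows with a U-937 peak and 2.75% without. The insulin response motif TGTTTTG occurred in the windows of PSMD9, which had a peak, and PSMD10, which had none, and in 3.72% of all. Its share over other genes was 2.93% of windows with a peak and 3.78% without. A window with no match says only that these letters are not in its 300 bases.

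The motif TGACNNNGC, which CNC-bZIP factors such as the proteasome regulator NFE2L1 bind, occurred in 5 of the 6 windows with a peak, all but PSMC5. It occurred in 8 of 38 proteasome windows without a peak (21.1%), those of PSMB3, PSMD3, PSMD5, PSMD12, PSME1, PSME2, PSME4 and PSMG2. Over other genes it was in 15.8% of windows with a peak and 14.2% without, and in 14.4% of all. In PSMD1 it read TGACTGAGC, 39 bases after the start, and in PSMD9 it occurred on both strands. The matches in PSMB9 and PSMG1 lay inside the peak, whereas those in PSMD1, PSMC4 and PSMD9 lay outside it. For PSMG2 the match was in the window of its outer start. The window at its inner start, in which a U-937 summit falls, held no match. A match describes the letters of a window and is not a binding site, and binding of these factors was not tested.

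The remaining motifs are promoter elements bound by other factors. The SP motif GGGCGG was in all 6 windows with a peak and 24 of 38 proteasome windows without, against 58.3% of all windows. Over other genes it was in 72.4% of windows with a peak and 57.2% without. The NF-Y motif CCAAT was in 3 of 6 and 18 of 38, against 36.4%, and the ETS motif CCGGAAG in 1 of 6 and 13 of 38, against 14.2%. For other genes with and without a peak, the shares were 50.4% and 35.2% for NF-Y and 19.0% and 13.7% for ETS. The E-box CACGTG was in 1 of 6 and 3 of 38 (8.83% of all), TATAAA in 1 of 6 and 4 of 38 (9.75%) and the NRF1 motif (GCGC, any base, TGCGC) in 1 of 6 and 4 of 38 (8.59%). The shares for other genes with and without a peak were 10.7% and 8.67%, 5.02% and 10.1%, and 14.0% and 8.14%, in the same order. The CRE motif TGACGTCA was in none of the proteasome windows and 2.56% of all.

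The windows with a peak were GC-rich, with a median GC share of 65.3% (range 54.3 to 71.3), against 61.2% for proteasome genes without a peak. For other genes the medians were 64.0% with a peak and 62.3% without. All windows were also divided by GC share into 5 groups of about equal size, and 5 of the 6 proteasome genes with a peak had a GC share of 60.0 to 72.0%. Of all proteasome genes, 2 of 17 had a peak at 60.0 to 65.3% GC and 3 of 6 at 65.7 to 72.0% GC. In the group of lowest GC it was 0 of 5, in the next 1 of 12 and in that of highest GC 0 of 4. Of other genes, 10.7% had a peak at 60.0 to 65.3% GC and 10.6% at 65.7 to 72.0% GC. The shares were 2.79% in the group of lowest GC and 5.37% in that of highest GC. The share of genes with a peak thus moved with GC, and the part of GC in the proteasome values was not tested.

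Genes that work with the proteasome but carry other symbols were taken from a list of 31. A U-937 peak lay at 4 of them (12.9%, exact 95% interval 3.63 to 29.8), beside 7.02% of all protein-coding genes, which the interval includes. They were RAD23B, a shuttle that carries ubiquitinated proteins to the proteasome (fold 7.83), and UFD1, a cofactor of the segregase VCP (fold 6.50). The others were NFE2L1, the factor that raises proteasome gene transcription when the proteasome is inhibited (fold 5.94), and ZFAND5, a zinc finger protein that binds the proteasome (fold 5.38). The RAD23B, NFE2L1 and ZFAND5 summits lay 138, 228 and 551 bp upstream of the gene start. The window of the NFE2L1 peak also held COPZ2, and that of UFD1 held CDC45.

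In THP-1 a peak lay at 1 gene of the list, the polyubiquitin gene UBB (fold 9.84, -log10 q 16.1). That is a share of 3.23% (exact 95% interval 0.0816 to 16.7), beside 0.221% of all protein-coding genes, which the interval includes. Its summit was inside UBB, 1531 bp from the start and 435 bp from the end. ADRM1, SEM1 and POMP, which encode a ubiquitin receptor, a small subunit and a maturation factor of the proteasome, had no peak in the window in either line. With these 3 genes added, the U-937 share of proteasome genes was 11.3% (6 of 53).

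Other large complexes are given for scale. Mitochondrial ribosomal protein genes carried a U-937 peak in 8 of 77 cases (10.4%, exact 95% interval 4.59 to 19.4), and cytosolic ribosomal protein genes in 16 of 83 (19.3%, 11.4 to 29.4). Over all protein-coding genes the share was 7.02%, which the mitochondrial interval includes and the cytosolic interval lies above. The interval of the proteasome genes overlapped both. In THP-1 both ribosomal groups had 0 members with a peak, as had the proteasome genes, beside 0.221% of all protein-coding genes.

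**Figure D4:**
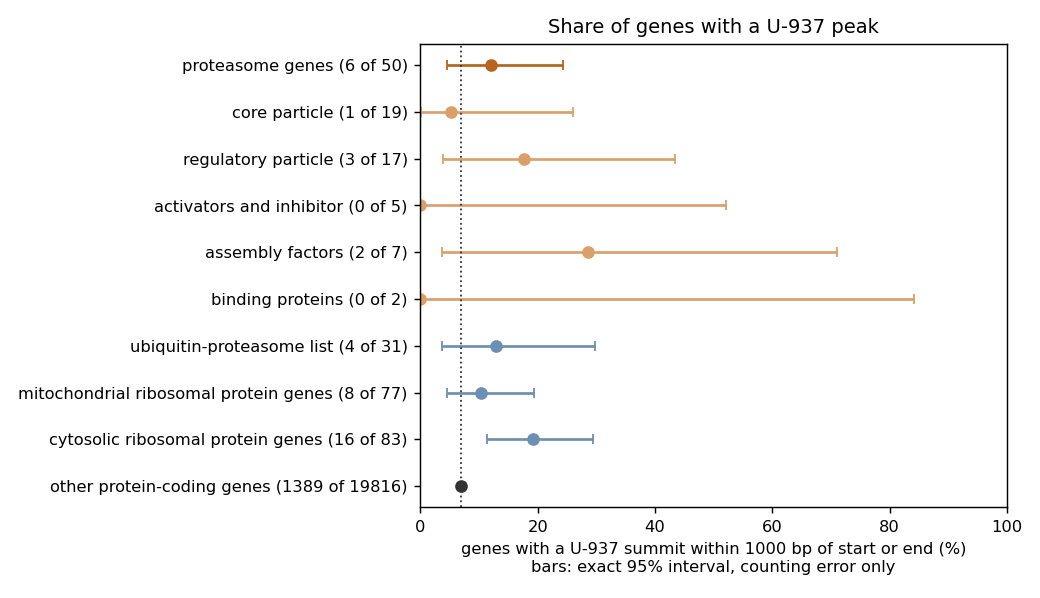
Percentage of genes with a U-937 peak summit within 1000 bp of their start or end, as points with exact 95% intervals, for the proteasome genes and their groups by role, for 3 comparison lists and for the other protein-coding genes (dotted line at 7.01%). The intervals of all proteasome groups include the dotted line.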

How the data were processed

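CUT&Tag for FOXO3A was read from 5 libraries, and the authors deposited 1 peak list per library. The submitters' processing notes name Bowtie2, Picard and the build hg38. How peaks were called, against which background and from how many reads is not given in the sources used here. The lists have no header and follow the narrowPeak layout. The values the authors deposited per peak were a score, a fold enrichment on a linear scale, a -log10 p and a -log10 q. The score was not used.

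Only peaks on the autosomes, X and Y entered. Gene spans came from the RefSeq table (GRCh38.p14). Of 59792 genes, 831 were left out. These were genes not listed on an autosome, X or Y, such as those of the mitochondrial genome, and genes whose coordinates were out of order. The latter were taken to lie on other scaffolds. Strand was known for 15843 of 19866 protein-coding genes, those with a RefSeq promoter window, and 15841 of these windows without an undetermined base were searched for motifs. A gene had a peak when a summit lay within 1000 bp of either end of its span. A share of 0 also has the limit that 3 counts of the total give. The intervals given for shares are exact Clopper-Pearson intervals (scipy 1.17.1), and no p-value was computed because 1 library per line held peaks. Window, threshold, assignment, gene end and membership were varied. The assignment was tested on simulated peaks, and 500 of 500 planted genes were recovered among 19866. The members, lists, motifs and rules were chosen with earlier results of these data known. By rule the text names every member with a summit within 3000 bp, the neighbours that share its peak, list members with a peak and the catalytic subunits; other genes were named after their values were seen.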

Additional observations from a re-analysis of the deposited data

Results flagged for a closer look

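The THP-1 list held 245 peaks on contigs that are not chromosomes, which entered no comparison above. They draw attention because they are a signal outside the chromosomes on which the proteasome genes were placed, and the U-937 list held 0 of this kind.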

How the results depend on the processing

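The THP-1 share of proteasome genes was 0 under every alternative run, and the U-937 share lay between 10.0% and 18.0% under the alternatives other than those named here. With gene ends only it was 0 for all proteasome genes, the core particle, the regulatory particle and the assembly factors, against 0.437% of other genes. Without peaks in the window of more than 1 protein-coding gene it was 4.0%, against 4.09% of other genes. With the nearest protein-coding gene only, the core particle had 0 genes with a peak, as PSMB9 was lost, and the other genes had 5.60%. For the other genes the U-937 share was 6.22% at 500 bp, 8.19% at 3000 bp, 3.92% at a -log10 q of at least 5 and 7.73% with every start of the promoter table, and their THP-1 share was 0.131% at 500 bp, 0.500% at 3000 bp, 0.151% at that -log10 q and 0.057% with ends only. Shares with starts or ends only rest on the 44 proteasome genes of known strand. Leaving out U-937 replicate 2 left the proteasome share at 12.0% and that of other genes at 7.01%, and leaving out THP-1 replicate 2 or 3 changed nothing, as these lists were empty. Without replicate 1 of either line no peak was left and no value could be had. No paired analysis was possible because the libraries with peaks share only replicate number 1.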

Other observations

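The 52 pseudogenes with proteasome symbols, looked at after the data were seen, had 0 members with a peak within 1000 bp in either line, where 3 counts in 52 give an upper limit of 5.77%. Over all protein-coding genes the shares were 7.02% in U-937 and 0.221% in THP-1. The share over all pseudogenes was not computed, so the 0 shows no contrast between genes and pseudogenes. The nearest U-937 summit was 3.30 kb from PSME2P6 and the nearest THP-1 summit was 98.4 kb from PSMA6P3.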
